A study of Mus musculus with 6 samples.

Results

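Intermediate filament genes, 10 of the 18194 genes with a probe set of their own, were followed through 26 of the 45101 probe sets of an Affymetrix mouse array, namely all those whose single gene symbol in the platform annotation is Nefl, Nefm, Nefh, Ina, Prph, Vim, Nes, Lmna, Krt8 or Krt18. They were grouped as 5 neuronal, 2 mesenchymal or progenitor, 1 nuclear lamina and 2 epithelial genes. RNA came from cortex of untreated mice of the BAC transgenic line ES691, which expresses a tagged ribosomal protein under the S100a10 gene's control, on C57BL/6 after 3 to 5 generations of backcross from FVB. The TRAP group (translating ribosome affinity purification) held 3 samples of RNA precipitated with the tagged ribosomes. The unbound group held 3 samples of flow-through RNA of whole cortex lysate from the same line, which the sample titles call input. Both groups carry the transgene, and the series text states that this line also labels some cells that are not neurons. The labels give neither the animals' age nor the number of animals behind a sample, so the p-values rest on the spread among these samples, part of which may be technical.

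Intermediate filaments are rope-like polymers of coiled-coil proteins, and their composition differs by cell type. Neurofilaments of mature axons are copolymers of the light, medium and heavy neurofilament proteins with alpha-internexin or peripherin, and they set axon calibre. Vimentin filaments are typical of mesenchymal cells, endothelium and glial precursors, nestin joins them in progenitors and in some vessel cells, keratins 8 and 18 pair in simple epithelia, and lamins line the inner nuclear membrane of nearly all cells.

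Vim was 8.03-fold to 9.27-fold higher in TRAP RNA by each of its 3 probe sets, and Nes was 2.05-fold higher by the only one of its 3 probe sets above the level minimum. Nefh was 2.73-fold lower, Ina was lower by all 3 of its probe sets, and Nefl and Nefm lay close to their unbound level. Krt8, Krt18 and Prph stayed below the level minimum in both groups. In such tissue RNA, fewer cells of a type and less RNA per cell cannot be told apart.

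Values are GCRMA intensities, the array brightness after the authors' background correction and normalisation. A probe set was tested if the mean of at least 1 group reached 50, which 15 of the 26 did and 11 did not, and a call is a limma adjusted p under 0.05 over all 22591 probe sets that met this limit. Of the 15, 6 were called higher and 6 lower in TRAP RNA, and 3 were not called. Among all tested probe sets 20.6% were called higher and 47.7% lower, or 68.3% in either direction. The median log2 difference over all tested probe sets was -0.25, so a fall of that size is the typical value on these arrays. Once every array was centred on its own median, calls over all probe sets were 7649 higher and 7483 lower, against 4663 and 10767 without centring, and the filament probe sets gave 8 higher and 4 lower. Against a 2-fold change (limma treat, without centring), 4 filament probe sets were called higher and 1 lower, where 3.82% and 9.49% of all probe sets were.

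The arrays themselves had medians over all probe sets of 31.4 to 31.8 in TRAP RNA and 42.4 to 43.1 in unbound RNA. S100a10, the driver gene, measured 14128 ± 1095 in TRAP RNA and 2430 ± 451 in unbound RNA (SD, n = 3 each). General pyramidal neuron markers were present in both fractions, with summed intensities of 14538 to 14838 in TRAP RNA and 13170 to 15646 in unbound RNA over 7 genes. Of the tested filament probe sets, 8 of 15 hold a value repeated exactly on 2 or 3 arrays of one group. For the 7 without such repeats, 2 were called higher and 3 lower. Between 17.9% and 21.6% of all tested probe sets hold the same value on both arrays of a within-group pair, against 0% for pairs that cross the groups. The sources used here do not say whether GCRMA was run on each group alone. If it was, processing and group cannot be told apart, and the fold changes could carry part of that difference, which was not tested. Repeated values also shrink the spread behind a p-value.

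**Figure D1:**
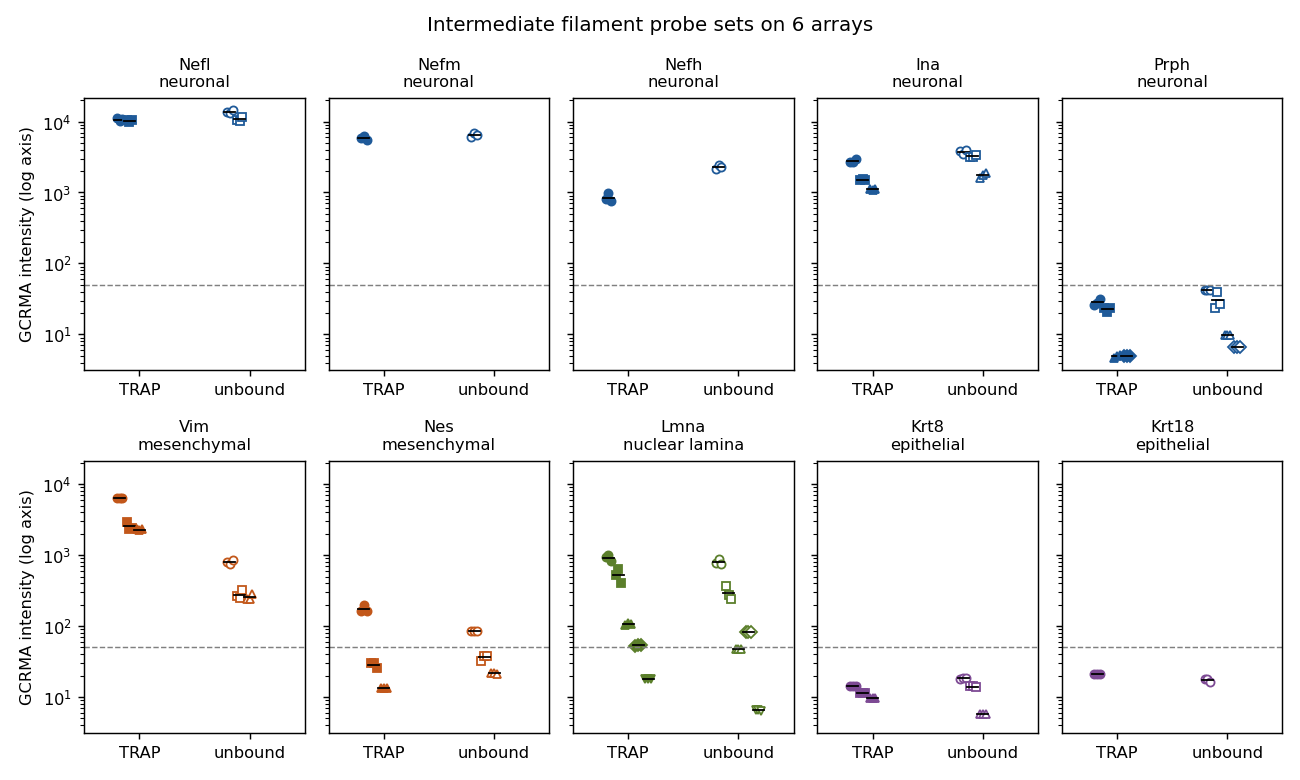
Each panel shows 1 gene, with GCRMA intensity on a log axis for the 3 TRAP arrays (filled symbols, left) and the 3 unbound arrays (open symbols, right). Each symbol shape is a probe set, short bars are group means and the dashed line marks the level minimum of 50. Vim lies higher in TRAP RNA by all probe sets, Nefh and Ina lie lower, and Prph, Krt8 and Krt18 lie under the line in both groups.

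Nefl, the light chain that forms the core of the polymer, is read by 2 probe sets. The brighter one (1454672_at) had intensities of 11077, 10244 and 10684 in TRAP RNA, against 13631, 13313 and 14393 in unbound RNA. All 3 TRAP arrays lay under all 3 unbound arrays, a 1.29-fold lower level (log2 -0.37, SE 0.05, adjusted p = 0.0016). The difference lies close to the median of all probe sets, and after centring it was -0.11 and not called (limma adjusted p = 0.15).

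The other Nefl probe set (1426255_at) gave 10406, 9897 and 10406 in TRAP RNA, against 10411, 10292 and 11625 in unbound RNA. These groups overlap, and the difference of -0.07 was not called (limma adjusted p = 0.32), while after centring it was 0.19 and called higher (adjusted p = 0.047). The direction for Nefl thus depended on the probe set and the scaling.

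Nefm, the medium chain, gave intensities of 5774, 6345 and 5559 in TRAP RNA, against 6002, 6843 and 6365 in unbound RNA. The groups overlap, and the log2 difference of -0.12 (SE 0.07) was not called (limma adjusted p = 0.20), nor was it after centring, where its sign turned (0.14). Nefl and Nefm are adjacent genes, with no other protein-coding gene between them in the RefSeq annotation of GRCm38.p6.

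Nefh, the heavy chain, whose long phosphorylated tail projects from the filament and which is abundant in large-calibre axons, stood apart from both. Its intensities were 802, 973 and 748 in TRAP RNA, against 2156, 2414 and 2275 in unbound RNA. Every TRAP array lay below every unbound array, and no value was repeated. The level was 2.73-fold lower (log2 -1.45, SE 0.11, adjusted p = 2.5e-04) and was past 2-fold in the treat test on uncentred values (adjusted p = 0.041). After centring it was still lower, at -1.18 (limma adjusted p = 2.6e-04 against no change). The 2-fold test was not run on centred values.

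The log2 fold change of Nefh minus that of Nefl was -1.08 (SE 0.15), computed within each array, so that a scaling of whole arrays cancels. The exact two-sided permutation p was 0.1, the smallest that 3 against 3 unpaired samples can give, and 0.109 adjusted over the 12 pairs of genes compared. Within pairs of same-numbered samples the 95% interval was -1.40 to -0.76 (exact sign-flip p = 0.25, the smallest possible). For Nefm against Nefl the difference was 0.25, with a 95% interval of -0.06 to 0.56 and an exact permutation p = 0.1. That interval treats the samples as unpaired. Within pairs of same-numbered samples the differences were 0.24, 0.27 and 0.23, all of one sign, and the paired 95% interval was 0.20 to 0.29 (n = 3 pairs, exact sign-flip p = 0.25, the smallest possible). The paired form was added after the data were seen. Both forms of this difference use the brighter Nefl probe set. By the other, the log2 difference of Nefl was -0.07, against -0.12 for Nefm. The sign of the difference between the genes thus depended on the Nefl probe set. By fold change Nefh ranked 11319 of 12066 genes from the highest, Nefl 7269 and Nefm 5352.

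Markers of 2 neuron types known for much neurofilament heavy chain are given beside this value. The counts of these and later marker lists stand beside shares over all genes, by brightest probe sets, of 23.1% higher and 45.6% lower. Of 8 markers of layer 5 subcerebral neurons 6 were lower and 2 higher, with a median log2 difference of -1.34 and summed intensities of 37603 to 38995 in TRAP RNA and 45246 to 46166 in unbound RNA. Fezf2, a regulator of subcerebral fate, was 1.17-fold higher and Pcp4, a calmodulin-binding protein gene, 1.11-fold higher, and both were named after their values were seen. Fezf2 read 986 on all 3 TRAP arrays. Of the 3 markers without a repeated value 2 were called lower and 0 higher. Pcp4 alone averaged 30414 in TRAP RNA and 27325 in unbound RNA, most of the sums above. In this and the other lists a sum weighs the brightest genes most. The Pcp4 call was lost when TRAP replicate 1, TRAP replicate 3, unbound replicate 2 or unbound replicate 3 was left out, with adjusted p between 0.063 and 0.086. Bcl11b, a transcription factor of corticospinal neurons, was 4.14-fold lower, Parm1 3.05-fold, and Colgalt2 was 6.25-fold lower with its TRAP value near background (log2 -0.49 with values under 50 raised to 50). All 7 tested of 8 fast-spiking interneuron markers were lower, with a median of -1.98. Their summed intensities were 11581 to 14635 in TRAP RNA and 35602 to 35907 in unbound RNA. Pvalb, the calcium buffer of these cells, was 6.89-fold lower, the transcription factor gene Sox6 10.6-fold and the neuropeptide gene Tac1 6.33-fold. The part of these cells in the Nefh value was not tested.

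Ina encodes alpha-internexin, which joins the neurofilament triplet in central neurons. Its 3 probe sets differed in size. The brightest (1448991_a_at) had 2700, 2724 and 2957 in TRAP RNA, against 3825, 3462 and 4019 in unbound RNA, a 1.35-fold lower level (log2 -0.43, SE 0.07, adjusted p = 0.0042) that was not called after centring (log2 -0.17, adjusted p = 0.097). Probe set 1418178_at had 1477, 1538 and 1495 in TRAP RNA, against 3195, 3195 and 3386 in unbound RNA, a 2.17-fold lower level (log2 -1.12, SE 0.04, adjusted p = 1.2e-05). The third (1448992_at) had 1118, 1087 and 1118 in TRAP RNA, against 1625, 1737 and 1903 in unbound RNA, and was 1.58-fold lower (adjusted p = 5.7e-04). Both dimmer probe sets kept their calls after centring. By the brightest probe sets Ina and Nefl differed in fold change by -0.06 on the log2 scale, with a 95% interval of -0.24 to 0.12 (exact permutation p = 0.5). The paired 95% interval was -0.37 to 0.25 (exact sign-flip p = 0.75).

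The Ina promoter is shown as the only one among the neuronal genes that were tested here for which the RefSeq table holds a sequence. It spans chr19:47014431-47014730 on the plus strand of GRCm38.p6, 250 bases before to 50 after the annotated start, with matches to the GC box GGGCGG in capitals.
Ina: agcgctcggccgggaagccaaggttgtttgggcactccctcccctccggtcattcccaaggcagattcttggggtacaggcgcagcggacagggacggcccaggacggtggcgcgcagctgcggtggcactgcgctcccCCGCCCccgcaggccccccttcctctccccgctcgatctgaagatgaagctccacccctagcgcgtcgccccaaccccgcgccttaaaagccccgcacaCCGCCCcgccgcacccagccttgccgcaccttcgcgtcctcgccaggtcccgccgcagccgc
Both matches lie on the opposite strand, starting 111 and 12 bases before the start.

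Prph, which encodes peripherin, the filament of peripheral and autonomic neurons, was under 50 in both groups by all 4 probe sets and was not tested. The brightest (1420256_x_at) averaged 28.5 ± 2.68 in TRAP RNA and 42.4 ± 0 in unbound RNA (SD, n = 3 each). The other group means lay between 4.89 and 22.5 in TRAP RNA and between 6.67 and 30.1 in unbound RNA. All 4 probe sets were lower in TRAP RNA by 0.38 to 0.98 on the log2 scale, all at signals near background.

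Vim, which encodes vimentin, had the largest difference among the 10 genes. Its brightest probe set (1438118_x_at) read 6418 on all 3 TRAP arrays, against 794, 740 and 867 on the unbound arrays. The TRAP values are identical, so their SD of 0 is not a measure of error, and the type marked _x_at can cross-hybridise. The level was 8.03-fold higher in TRAP RNA (log2 3.01, SE 0.06, adjusted p = 2.9e-06).

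Both other Vim probe sets gave like differences. Probe set 1450641_at, with no repeated value and no such mark, read 2913, 2367 and 2434 in TRAP RNA, against 263, 252 and 318 in unbound RNA, and was 9.27-fold higher (log2 3.21, SE 0.13, adjusted p = 2.2e-05). The third (1456292_a_at) read 2311, 2241 and 2311 in TRAP RNA, against 240, 239 and 287 in unbound RNA, and was 8.99-fold higher (adjusted p = 5.6e-06). Each of the 3 was past 2-fold in the treat test (adjusted p from 1.7e-05 to 1.5e-04), as 3.82% of all tested probe sets were in this direction. Over all 12066 genes Vim ranked 199 by fold change.

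The Vim promoter is shown because its level differed most among the 10 genes. It spans chr2:13574061-13574360 on the plus strand of GRCm38.p6, in the same window around the annotated start, with matches to CCAAT and to the TATA box TATAAA in capitals.
Vim: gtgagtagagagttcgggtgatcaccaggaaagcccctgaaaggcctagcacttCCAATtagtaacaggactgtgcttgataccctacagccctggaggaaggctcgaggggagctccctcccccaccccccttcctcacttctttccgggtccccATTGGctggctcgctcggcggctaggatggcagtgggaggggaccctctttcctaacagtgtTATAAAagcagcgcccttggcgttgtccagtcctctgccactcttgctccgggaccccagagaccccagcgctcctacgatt
The TATA match begins 32 bases before the start, and the CCAAT matches begin 196 bases before it on the gene's strand and 94 before it on the opposite strand.

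Of the 10 genes 7 had a promoter in the RefSeq table, with 2 for Lmna, and Nefl, Nefm and Nefh were named only. Each was searched on both strands for the AP-1 motif (TGANTCA), the GC box, the CCAAT box and the TATA box, whose matches overlap one another only in Krt8, at 2 TATA boxes. Of 32851 promoters of the same length, 7.81% held the AP-1 motif, 35.7% the GC box, 37.4% the CCAAT box and 13.6% the TATA box. Nes and Prph held the GC box, Prph and Krt8 held the TATA box, and Krt18 held none of the 4 motifs. The upstream Lmna promoter held the AP-1 motif and the GC box, and the downstream one the CCAAT box. A match of letters describes the window and does not show that a factor binds there.

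**Figure D2:**
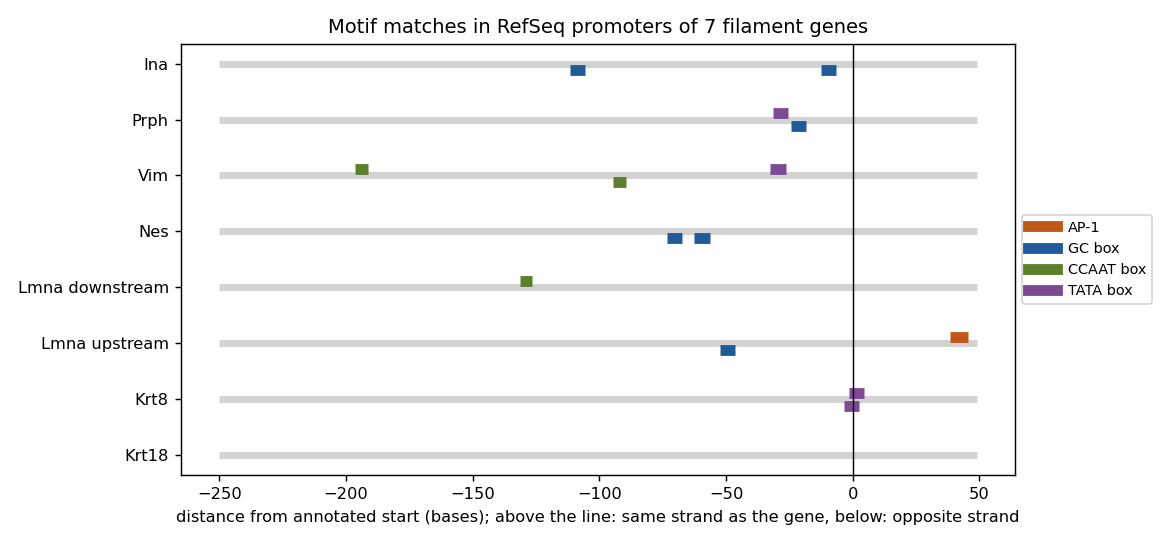
Grey bars are the RefSeq promoter windows of 7 filament genes (2 for Lmna), drawn by distance in bases from the annotated start. Coloured blocks are motif matches, above the bar on the gene's strand and below it on the opposite strand. Vim has a TATA match 32 bases before its start and Ina has only GC boxes.

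Set against the neuronal chains within each array, the fold change of Vim was higher by 3.37 (SE 0.05) on the log2 scale than that of Nefl, by 3.13 (SE 0.12) than that of Nefm, by 4.45 (SE 0.15) than that of Nefh and by 3.44 (SE 0.04) than that of Ina. Each of these pairs had an exact permutation p = 0.1, the smallest possible, with 0.109 after adjustment over 12 pairs. Leaving out any 1 array moved the difference between Vim and Nefl only from 3.34 to 3.40.

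Nes encodes nestin, a large filament protein of neural progenitors and of some vascular cells. Its brightest probe set (1449022_at) read 162, 199 and 162 in TRAP RNA, against 84.1, 86.2 and 84.1 in unbound RNA. All TRAP arrays were above all unbound arrays, a 2.05-fold higher level (log2 1.04, SE 0.09, adjusted p = 3.9e-04) that did not pass the test against a 2-fold change. The other Nes probe sets did not reach 50 in either group and pointed the other way, with means of 28.7 ± 2.81 and 13.3 ± 0 in TRAP RNA and 36.2 ± 3.09 and 21.9 ± 0.469 in unbound RNA (SD, n = 3 each). The log2 fold change of Nes minus that of Vim was -1.97 (SE 0.12, exact permutation p = 0.1, adjusted 0.109).

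Marker RNA of cell types that are known to carry vimentin differed between the groups to unlike extents, between lists and within them. Of 12 meningeal fibroblast markers 11 were tested and all 11 were higher, with a median log2 difference of 4.59 and summed intensities of 32413 to 36869 in TRAP RNA and 1559 to 1882 in unbound RNA. Among them Col1a2, a fibrillar collagen chain, was 37.7-fold higher, the matrix protein gene Mgp 37.4-fold, and the proteoglycan gene Lum 36.6-fold, the last with its unbound value near background (log2 2.20 with values under 50 raised to 50).

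Mural cell markers were higher in 5 and lower in 2 of 8 tested of 10, with summed intensities of 5918 to 7383 in TRAP RNA and 2952 to 3258 in unbound RNA. Myl9, a myosin light chain, was 11.7-fold higher, Vtn 11.1-fold and Tagln 10.4-fold. Rgs5, a pericyte marker, was 4.66-fold lower and Mylk, a myosin kinase gene, 1.94-fold lower, both named after their values were seen. Of 10 endothelial markers 6 were under 50 in both groups, 1 was higher and 2 were lower, with summed intensities of 806 to 1122 in TRAP RNA and 1214 to 1426 in unbound RNA. The transporter gene Abcb1a was 3.79-fold higher, while Slco1c1 was 5.94-fold lower with a TRAP mean under 50 (log2 -2.20 with values under 50 raised to 50). Cldn5, a tight junction gene, was 1.30-fold lower, a call lost after centring (adjusted p = 0.37) and when any 1 unbound array was left out (adjusted p from 0.051 to 0.054).

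Of 10 astrocyte markers 6 were lower and 2 higher, with summed intensities of 14859 to 18376 in TRAP RNA and 16441 to 25562 in unbound RNA. Aqp4, which encodes an astrocyte water channel, was 15.0-fold lower and Mlc1 9.46-fold lower. Gjb6, a gap junction gene, was 5.75-fold higher and Aldh1l1 1.73-fold higher, both named after their values were seen. No list held a marker listed at 0. The part of these cell types in the Vim and Nes values was not tested.

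**Figure D3:**
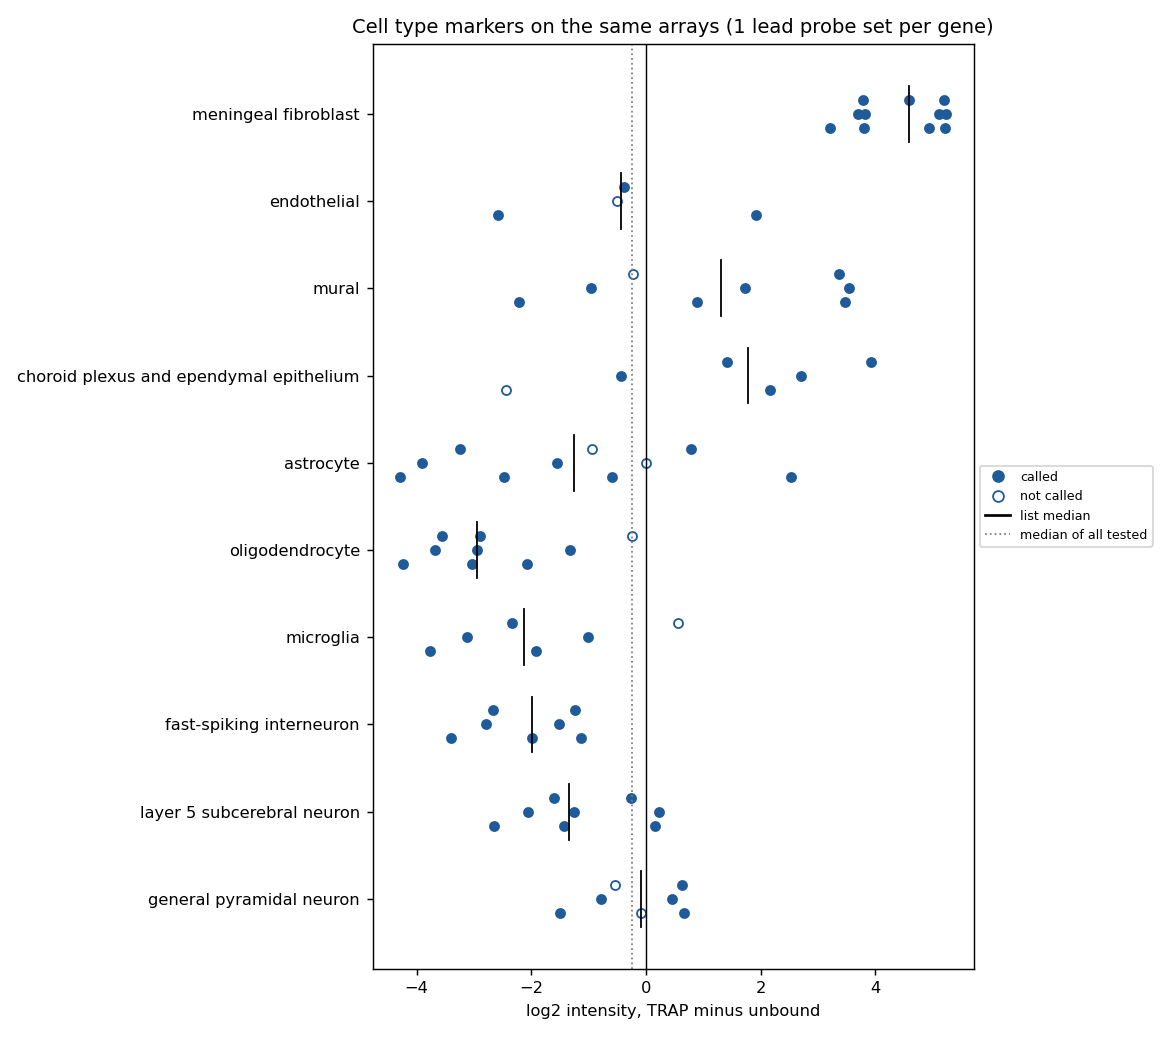
Each point is a tested marker gene, by its brightest probe set, with the log2 difference TRAP minus unbound on the horizontal axis. Filled points were called by limma, open ones were not, vertical bars are list medians and the dotted line is the median of all tested probe sets. Meningeal fibroblast markers lie highest, with a median of 4.59, and oligodendrocyte markers lowest, with a median of -2.94.

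Lmna encodes lamins A and C, filaments of the nuclear lamina made by alternative splicing, of which the brain is known to make mostly lamin C. Of its 5 probe sets 4 were tested, and they did not run one way. The brightest (1421654_a_at) read 929, 1005 and 835 in TRAP RNA, against 777, 878 and 754 in unbound RNA. These ranges overlap, and the log2 difference of 0.20 (SE 0.09) was not called (limma adjusted p = 0.12). It was called higher after centring (log2 0.46, adjusted p = 0.0080) and with the replicate number as a block (adjusted p = 0.020).

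Probe set 1457670_s_at read 529, 632 and 405 in TRAP RNA, against 373, 273 and 245 in unbound RNA, and was 1.76-fold higher (log2 0.81, SE 0.23, adjusted p = 0.029). The groups do not overlap, but the call was lost when TRAP replicate 1, TRAP replicate 2, unbound replicate 2 or unbound replicate 3 was left out, with adjusted p between 0.079 and 0.089. Probe set 1425472_a_at read 105, 110 and 109 in TRAP RNA, against 48.3 on each unbound array, and was 2.23-fold higher (adjusted p = 4.0e-06). It was tested only because its TRAP value passed the level minimum.

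A further Lmna probe set, 1452212_at, went against these, with 52.6, 53.7 and 53.7 in TRAP RNA, against 82.0 on each unbound array, and was 1.54-fold lower (log2 -0.62, adjusted p = 1.9e-05). The last probe set lay under 50 in both groups, at 18.2 ± 0 in TRAP RNA and 6.50 ± 0.120 in unbound RNA. Which lamin transcript each probe set reads is not given by the annotation used here. By the brightest probe sets the log2 fold change of Lmna minus that of Vim was -2.81 (SE 0.15, exact permutation p = 0.1, adjusted 0.109).

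The epithelial pair Krt8 and Krt18, which are adjacent genes in the RefSeq annotation, gave no level above 50. Krt18 (1448169_at) read 21.1 on each TRAP array, against 17.8, 17.8 and 16.5 on the unbound arrays. The 3 Krt8 probe sets averaged 9.73, 11.4 and 14.5 in TRAP RNA, against 5.80, 14.0 and 18.4 in unbound RNA. One of them was higher in TRAP RNA (log2 0.75) and 2 were lower (log2 -0.30 and -0.35), so the members of the pair show no common direction at this signal. All 3 TRAP values were identical in each of the 4 keratin probe sets. The log2 fold change of Krt8 minus that of Krt18 was -0.62 by the brightest probe sets, and 0 with values under 50 raised to 50.

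Markers of the epithelium that could carry these keratins differed in level and did not run one way. Of 10 choroid plexus and ependymal markers 4 were under 50 in both groups, 4 were higher and 1 lower, with summed intensities of 1634 to 1952 in TRAP RNA and 421 to 3230 in unbound RNA. Kcnj13, which encodes a potassium channel, was 15.2-fold higher, Rarres2 6.55-fold and Ccdc153 4.49-fold. Clic6 was 1.34-fold lower, and Aqp1, Foxj1, Otx2 and Folr1 were the 4 under 50. These 5 genes were named after their values were seen. Ttr, the main secreted protein of choroid plexus, read 35.0, 36.4 and 175 in TRAP RNA, against 159, 76.3 and 2886 in unbound RNA, so replicate 3 was the highest in both groups. This gene was chosen after its values were seen.

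**Figure D4:**
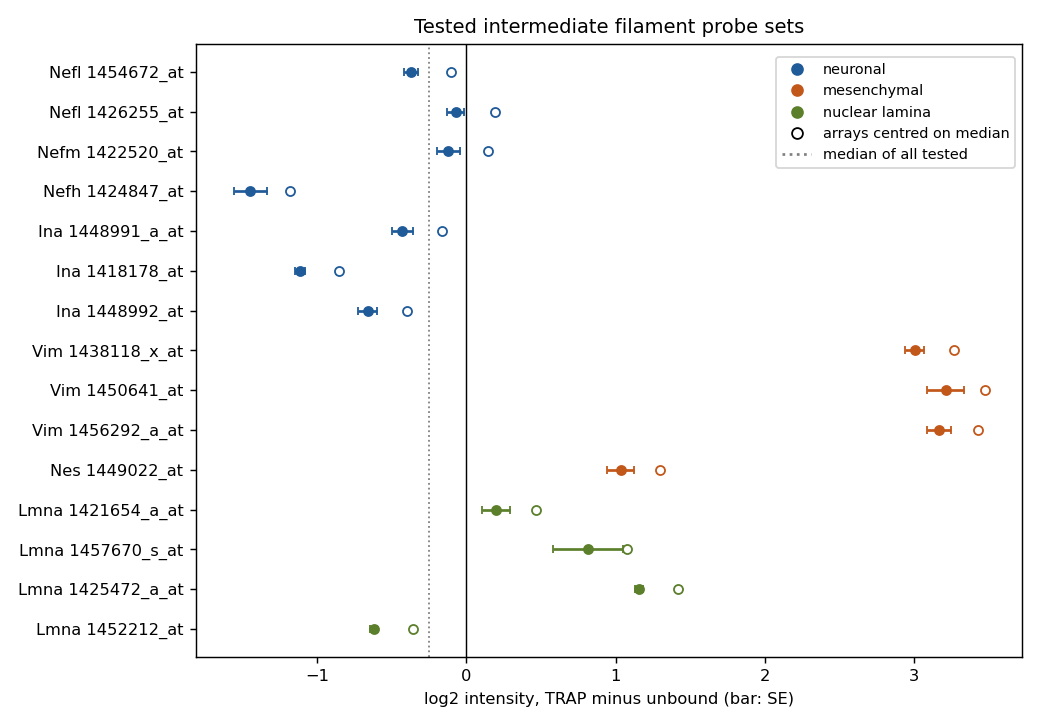
Each row is a tested filament probe set, with the log2 difference TRAP minus unbound on the horizontal axis. Filled points with bars give the difference and its SE, open points give it after centring each array, and the dotted line marks the median of all tested probe sets. The 3 Vim rows lie at 3.01 to 3.21, Nefh lies at -1.45, and the Nefl and Nefm rows lie on both sides of the dotted line.

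Of 19 further filament genes 11 were tested, and 2 were higher, 8 lower and 1 not called, or 3 higher and 4 lower after centring. Among the 6 without a repeated value 5 were called lower and 0 higher. Over all genes, by brightest probe sets, 23.1% were higher and 45.6% lower. Krt12, a keratin best known from corneal epithelium, had 5440 ± 734 in TRAP RNA and 1565 ± 400 in unbound RNA (SD, n = 3 each) and was 3.54-fold higher (adjusted p = 0.0014). Its probe set is of the type marked _s_at, which can read more than 1 gene. Krt80 was 3.05-fold higher, at 229 ± 21.1 in TRAP RNA and 74.9 ± 1.60 in unbound RNA (SD, n = 3 each).

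Gfap, the filament protein of astrocytes, was 19.6-fold lower, at 20.1 ± 5.57 in TRAP RNA and 384 ± 38.6 in unbound RNA (SD, n = 3 each), a log2 difference of -2.94 with values under 50 raised to 50. It is also one of the astrocyte markers above. Krt1 and Bfsp2, a lens filament gene, were 3.13-fold and 2.39-fold lower with TRAP means under 50. With the raised values their log2 differences were -0.38 and -0.79. Des, which encodes the muscle filament desmin, was under 50 in both groups, at 36.9 in TRAP RNA and 19.1 in unbound RNA, and was named after its values were seen.

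The B-type lamins and synemin, which pairs with vimentin-type filaments, were also chosen after their values were seen. They were lower by a log2 difference of -0.37 for Lmnb1, -0.36 for Lmnb2 and -0.40 for Synm (limma adjusted p = 0.026, 2.0e-04 and 0.035). All 3 lie close to the median of all probe sets, and none was called after centring, with log2 differences of -0.10, -0.09 and -0.13 (adjusted p = 0.38, 0.16 and 0.38). The replicate block also ended the calls of Lmnb1 (adjusted p = 0.065) and Synm (adjusted p = 0.086). Leaving out TRAP replicate 1, TRAP replicate 3, unbound replicate 1 or unbound replicate 3 ended that of Lmnb1 (adjusted p between 0.053 and 0.083), and leaving out any array other than TRAP replicate 3 ended that of Synm (adjusted p between 0.060 and 0.11).

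The tested linkers, which tie filaments to other structures, were lower in TRAP RNA. Of 12 genes 7 were tested, and all 7 were lower, with a median log2 difference of -1.31, or 6 lower after centring. Over all genes 45.6% were lower and 23.1% higher. The other 5 linkers were under 50 in both groups. Of these, Pkp1, Fblim1, Eppk1 and Dsp had higher means in TRAP RNA and Ppl a lower one, all at signals near background. Macf1, a crosslinker of microtubules and actin, was 5.34-fold lower at 182 ± 27.8 in TRAP RNA and 966 ± 58.4 in unbound RNA (SD, n = 3 each, adjusted p = 5.9e-05). Dst, which encodes dystonin and ties neuronal filaments to the cytoskeleton, was 4.17-fold lower, and the plakophilin gene Pkp2 3.73-fold lower. Only 3 of the 7 have no repeated value, and those 3 were called lower too.

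Genes of neurofilament transport, phosphorylation and turnover were lower in 6 and higher in 2 of 9 tested, where 45.6% of all genes were lower and 23.1% higher. Kif5a, the kinesin heavy chain that carries neurofilaments, had 5550 ± 726 in TRAP RNA and 13424 ± 401 in unbound RNA (SD, n = 3 each) and was 2.43-fold lower (adjusted p = 3.1e-04). Dync1h1, the dynein heavy chain, was 1.95-fold lower and Kif5b 1.68-fold lower. Stub1, a ubiquitin ligase, was 1.29-fold higher, with the same value of 10421 on all 3 TRAP arrays. Cdk5, a neurofilament kinase, was 1.21-fold higher, a call lost among probe sets without repeated values (adjusted p = 0.056). Of the 5 genes without a repeated value 4 were called lower and 0 higher. None of the 9 passed the test against a 2-fold change.

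Lamina and nuclear envelope partners went both ways. Of 12 genes 11 were tested, 2 were higher, 3 were lower and 6 were not called, where 23.1% of all genes were higher and 45.6% lower. Tmpo, which encodes lamin-binding LAP2 proteins, was 1.69-fold higher and Banf1, a chromatin-binding partner of the lamina, 1.60-fold higher. Lemd3 was 1.55-fold lower, the lamin B receptor gene Lbr 1.38-fold lower, and Sun1 1.29-fold lower, a call lost after centring (adjusted p = 0.23). None passed the test against a 2-fold change. Of the 4 genes without a repeated value 1 was called lower and 0 higher.

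Microtubule and axonal cytoskeleton genes gave 3 higher, 4 lower and 5 not called of 12 tested. Over all genes 23.1% were higher and 45.6% lower, so these counts do not set the list apart. Tubb6, a tubulin widespread outside neurons, was 2.78-fold higher at 183 ± 10.5 in TRAP RNA and 65.9 ± 0 in unbound RNA (SD, n = 3 each, adjusted p = 1.2e-05). The neuronal tubulin gene Tubb3 was 1.26-fold higher (adjusted p = 0.041), a call lost with the replicate block (adjusted p = 0.086) and when any array other than unbound replicate 3 was left out (adjusted p between 0.068 and 0.12). Stmn3 was 1.14-fold higher, with the same value of 37379 on all 3 TRAP arrays. Map2, the dendritic microtubule protein, was 7.63-fold lower, the axon-initial-segment spectrin gene Sptbn4 2.62-fold and Map1a 2.40-fold lower. Map1a read 752 on all 3 TRAP arrays. Of the 6 genes of this list without a repeated value 0 were called in either direction.

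**Figure D5:**
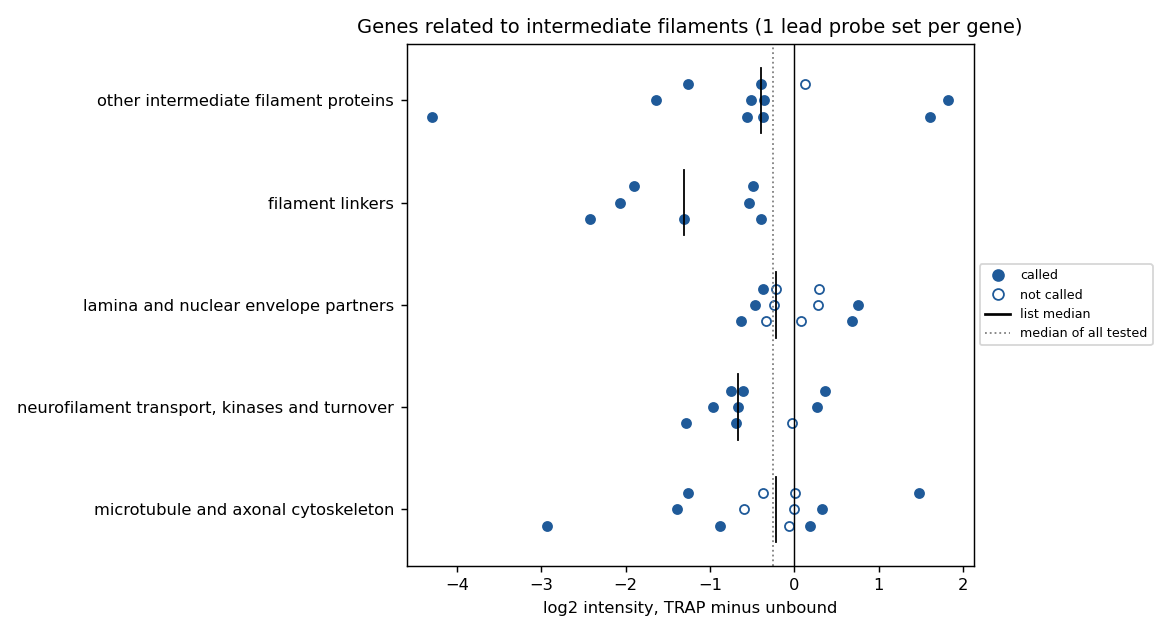
Each point is a tested gene of 5 lists around the filaments, by its brightest probe set, with the log2 difference TRAP minus unbound on the horizontal axis. Filled points were called by limma, open ones were not, vertical bars are list medians and the dotted line is the median of all tested probe sets. All 7 tested filament linkers lie below 0, with a median of -1.31, and Gfap is the lowest point of the other filament proteins.

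The genes whose values over the 6 arrays lay nearest to those of a filament gene were sought among 11571 genes, by Euclidean distance of log2 values after subtracting each gene's own mean. Nearest to Vim were Endou, Nfatc4 and the chemokine gene Cxcl12, at distances of 0.181, 0.185 and 0.192 and with 7.60-fold, 8.39-fold and 7.68-fold higher levels in TRAP RNA. Nearest to Nefl were Donson, Usp4 and Acbd3, at 0.0622, 0.0644 and 0.0644, with levels 1.26-fold to 1.28-fold lower. Nearest to Krt18 were Spc25, Lsm2 and Mtrf1l, at 0.0323, 0.0558 and 0.0626. With 2 groups of 3 arrays, the distance reflects mainly a like difference between groups.

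Most tested markers of oligodendrocytes and microglia were lower in TRAP RNA. Of 9 oligodendrocyte markers 8 were lower, led by Ermn (18.9-fold), Mog (12.8-fold) and Mal (11.8-fold), with summed intensities of 9193 to 14804 in TRAP RNA and 53015 to 58681 in unbound RNA. Of 8 microglial markers 6 were tested and 5 were lower, with summed intensities of 442 to 629 in TRAP RNA and 1259 to 1565 in unbound RNA. The remaining tested microglial marker, Tmem119, was 1.47-fold higher and not called (limma adjusted p = 0.057), but was called higher after centring. It was named after its values were seen. Csf1r was 5.04-fold lower, and P2ry12 and Cx3cr1 were 13.6-fold and 8.74-fold lower with TRAP values near background (log2 -1.02 and -1.49 with values under 50 raised to 50). Of the 7 general pyramidal neuron markers 3 were higher and 2 lower, with Nrgn 1.58-fold higher, Camk2a 2.84-fold lower and Tbr1 1.72-fold lower.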

How the data were processed

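The values deposited for the 6 arrays are linear intensities, made by the authors with GCRMA per the submitters' processing notes, which name no version. Per the labels' protocols 15 ng of RNA was amplified in 2 cycles, a method that favours transcript 3' ends, so that probe sets of 1 gene can differ. Groups and replicate numbers come from the sample descriptions, and 0 columns were unused. Of the 45101 probe sets 34958 have 1 gene symbol, 932 several and 9211 none, and 64 are controls, which were left out. By Entrez ID 34754 matched RefSeq (GRCm38.p6), with 0 symbols changed. No depth exists for arrays, and their number limits precision.

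Log2 intensities without a pseudocount were compared by limma 3.58.1 under R 4.3.3 (lmFit, eBayes, group only, two-sided), with Benjamini-Hochberg adjustment over 22591 probe sets with a group mean of at least 50. Adjusted p-values with no tool named are limma's. Fold changes are ratios of geometric means, and gene lists use the brightest probe set of each gene. The fit was checked on simulated independent values without repeats, pairing of samples or a shift between groups, so that check does not cover these features. Members and lists were chosen with earlier results of these data known. Named genes are the members, S100a10, in each related list up to 3 called genes per direction by size of change, the 3 with the largest change in each marker list, and the 3 nearest to Vim, Nefl and Krt18. Same-numbered TRAP and unbound samples deviated together (correlations over probe sets of 0.42, 0.45 and 0.37), so the numbers pair the samples, and the fit with that block was an alternative. Others were centring, quantile normalisation, filters, raised low values, a pseudocount of 16, treat, probe sets without repeated values, 1 probe set per gene and leaving out each array.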

Additional observations from a re-analysis of the deposited data

How the results depend on the processing

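All 3 Vim probe sets, the brightest Nes probe set, Nefh and both dimmer Ina probe sets kept their direction in every alternative that gave a value, with Vim between 2.95 and 3.48 and Nefh between -1.56 and -1.18 on the log2 scale. Centring turned Nefl 1426255_at to 0.19 and Nefm to 0.14, and quantile normalisation turned the difference between the fold changes of Ina and Nefl to 0.034. The 6 higher and 6 lower filament calls became 2 and 3 on probe sets without repeated values and 2 and 3 with 1 lead probe set per gene, where fewer probe sets are tested. Against a 2-fold change 1 was lower, and without a filter 13 were lower, 7 more than with it, from probe sets near background. Leaving out 1 array gave 5 to 6 higher and 6 lower. Over all probe sets the 4663 higher calls became 7649 after centring, 7086 after quantile normalisation, 11073 without a filter, 1855 without repeated values, 863 against a 2-fold change and 2808 with 1 lead probe set per gene. The 10767 lower calls became 7483 after centring, 7848 after quantile normalisation and 22216 without a filter. They became 4065 without repeated values, 2144 against a 2-fold change and 5517 with 1 lead probe set per gene. Leaving out 1 array gave 3981 to 4616 higher and 9643 to 10248 lower. With the replicate number as a block the counts were 4954 higher and 11193 lower over all probe sets and 7 and 6 for the filaments, the added filament call being Lmna 1421654_a_at (adjusted p = 0.020). Among the other genes named, the block ended the calls of Tubb3 and Synm (adjusted p = 0.086 for each) and Lmnb1 (adjusted p = 0.065) and no other call of a gene named here. The paired form of the differences between fold changes was added after the data were seen. In it Ina against Nefl had an exact sign-flip p = 0.75 and each other pair of genes 0.25, the smallest possible. There the interval of Nefm minus Nefl no longer held 0, at 0.20 to 0.29. That interval uses the brighter Nefl probe set, and by the other Nefl fell less than Nefm (log2 -0.07 against -0.12). Signals under 50 limit what can be said of Prph, Krt8 and Krt18.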
